A study of Mus musculus with 6 samples.

Results

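The 7 genes described here, Otof, Slc17a8, Bsn, Pclo, Ctbp2, Rims2 and Cabp2, encode presynaptic proteins of the ribbon synapse, the contact at which inner hair cells (IHCs) of the cochlea release glutamate onto the afferent fibres of spiral ganglion neurons. They were chosen by name, with earlier results of these data known, from the 24411 gene symbols counted in each library. The shares of all genes set beside their counts are therefore a description. All 7 were among the 15303 genes with enough reads to be tested. Of these, 4 were higher in mice that overexpress the potassium channel Kir2.1 in their IHCs (Kir2.1-OE): the scaffold genes Bsn and Pclo by 3.74-fold and 3.72-fold, Rims2 by 2.36-fold and Otof by 1.70-fold, where 15.5% of all tested genes were called higher. After each library's fitted trend with transcript length and GC content was subtracted, 3 of the 7 were called higher, beside 6.46% of all genes. The log2 fold change of Bsn went from 1.90 to 0.75, and that of Otof from 0.76 to -0.10, which ended its call. The call of Bsn depended on how the trend was drawn. With local lines, which were run before the fit reported here, Bsn was not called and 2 of the 7 were called higher. The vesicular glutamate transporter gene Slc17a8, the ribbon gene Ctbp2 and the calcium sensor gene Cabp2 changed by at most 0.13 on the log2 scale and did not pass the test.

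The study asked which genes depend on the Ca2+ action potentials that IHCs fire by themselves before the onset of hearing, which the extra Kir2.1 current prevents. Poly(A) RNA was sequenced from the dissected cochlear sensory epithelium at postnatal day 9 (P9), with 3 libraries in each group, each from a pool of 8 cochleae of 4 mice. Both groups were on a C57BL/6N background, carried the Otof rtTA+/- transgene, in which the otoferlin promoter drives the doxycycline-dependent activator rtTA in IHCs, and were given doxycycline (DOX) in their water at 0.5 mg/ml. The Kir2.1-OE mice carried in addition 1 tetO-Kir2.1-IRES-tau-lacZ allele, which the littermate controls lacked. The promoter of a gene described here therefore drove the transgene, and the controls carried that driver and the DOX as well. The epithelium holds outer hair cells, supporting cells, nerve fibres and glia beside the IHCs, and markers of fibrocytes, macrophages and melanocytes were also read in the libraries. In such bulk RNA fewer cells of a type and less RNA per cell cannot be told apart.

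Each IHC active zone carries an electron-dense ribbon that tethers synaptic vesicles next to CaV1.3 calcium channels. The ribbon is built mainly of RIBEYE, a product of Ctbp2, and is anchored to the membrane by bassoon (Bsn). Piccolo (Pclo) and RIM2 (Rims2) are further scaffold proteins of the active zone, VGLUT3 (Slc17a8) fills the vesicles with glutamate, otoferlin (Otof) is the calcium-binding protein required for their fusion, and CaBP2 (Cabp2) modulates the inactivation of the calcium channel. Bassoon, piccolo and RIM proteins are also found at conventional synapses of neurons, whereas otoferlin and VGLUT3 are typical of IHCs within the organ of Corti.

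The genes differ widely in size (mm10, GENCODE vM21). Pclo (ENSMUSG00000061601.15) lies on the plus strand at chr5:14514918-14863459, and its longest annotated transcript has 20084 nt in 25 exons. Bsn (ENSMUSG00000032589.14) lies on the minus strand at chr9:108096022-108190384, with a longest transcript of 15938 nt in 12 exons. Otof (ENSMUSG00000062372.13, minus strand, chr5:30367062-30461932) follows with 7419 nt for a transcript that retains an intron and 7129 nt for its longest coding transcript. Rims2 (ENSMUSG00000037386.16) spans chr15:39198261-39684372 on the plus strand, with a longest transcript of 4800 nt. Slc17a8 (ENSMUSG00000019935.16, minus strand, chr10:89574020-89621253) has a longest transcript of 4456 nt in 12 exons. Cabp2 (ENSMUSG00000024857.16, plus strand, chr19:4081578-4087340) is the shortest, with 1030 nt in 6 exons.

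Ctbp2 (ENSMUSG00000030970.16, minus strand, chr7:132987563-133124354) makes 2 proteins from different start sites. The 3604-nt transcript starts within the gene, at position 133015248, and has an open reading frame of 988 codons, the longest of the gene and the form of RIBEYE. The longest transcript that starts at the 5′ end of the gene, at position 133123367, has 2321 nt and 445 codons, the form of the transcriptional co-repressor CtBP2. The deposited values are one number per gene symbol, so the values of Ctbp2 below hold both products.

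The sequences just before the start sites are shown for the pair of genes that rose most, Bsn and Pclo, beside those of Slc17a8 and of the RIBEYE transcript of Ctbp2, neither of which passed the test. Each is the 250 bases before a RefSeq start site of the GRCm38.p6 assembly, 5′ to 3′ on the gene's strand, with every CG dinucleotide (the site of DNA methylation, which reads CG on both strands) in capitals. RefSeq windows were matched for 5 of the 7 genes. The windows were chr9:108190384-108190633 for Bsn (minus strand), chr5:14514668-14514917 for Pclo (plus strand), chr10:89621250-89621499 for Slc17a8 (minus strand) and chr7:133015248-133015497 for the RIBEYE start of Ctbp2 (minus strand).
Bsn: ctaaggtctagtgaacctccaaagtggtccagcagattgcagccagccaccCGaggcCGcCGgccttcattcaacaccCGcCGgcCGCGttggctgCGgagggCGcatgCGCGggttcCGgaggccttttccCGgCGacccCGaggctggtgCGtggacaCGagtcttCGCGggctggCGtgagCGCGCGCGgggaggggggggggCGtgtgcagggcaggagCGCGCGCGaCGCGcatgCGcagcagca
Pclo: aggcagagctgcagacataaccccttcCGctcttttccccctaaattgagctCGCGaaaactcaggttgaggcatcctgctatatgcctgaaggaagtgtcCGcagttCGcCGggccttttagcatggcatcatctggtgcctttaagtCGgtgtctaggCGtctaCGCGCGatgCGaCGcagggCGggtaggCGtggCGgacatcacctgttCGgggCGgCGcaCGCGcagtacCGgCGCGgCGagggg
Slc17a8: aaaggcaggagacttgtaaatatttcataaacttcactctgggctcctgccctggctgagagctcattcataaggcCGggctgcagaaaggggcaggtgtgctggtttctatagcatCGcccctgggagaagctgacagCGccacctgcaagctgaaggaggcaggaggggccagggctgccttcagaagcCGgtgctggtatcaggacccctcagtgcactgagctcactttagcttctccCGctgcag
Ctbp2 (RIBEYE start): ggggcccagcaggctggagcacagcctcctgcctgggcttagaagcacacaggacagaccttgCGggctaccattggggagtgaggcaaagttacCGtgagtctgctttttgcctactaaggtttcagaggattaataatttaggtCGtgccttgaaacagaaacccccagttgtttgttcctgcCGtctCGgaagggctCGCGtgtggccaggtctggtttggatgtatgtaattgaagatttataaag
The Bsn window held 32 CG dinucleotides, a number reached by 4.58% of 32851 RefSeq start windows of the same length. The Pclo window held 25, reached by 10.7% of windows. The Slc17a8 window held 5 (reached by 55.6% of windows) and the RIBEYE window 7 (46.3%), near the median of 6 over all windows. The windows of Cabp2 held 4 and 5. The counts describe the sequence and were not related to expression by any test.

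Kcnj2, which encodes Kir2.1, was read first as a check of the labels. Its normalized count (reads scaled by the TMM library size) was 226 to 236 in the control libraries and 2213 to 3813 in Kir2.1-OE. The libraries held between 35430940 and 41205047 reads assigned to genes. A gene was called higher or lower at an adjusted p-value under 0.05 (edgeR's quasi-likelihood test, Benjamini-Hochberg adjustment over all tested genes) together with a fold change above 1.5. By that rule 4 of the 7 ribbon synapse genes were higher, beside 15.5% of all tested genes, and none was lower, beside 5.08%. The median log2 fold change was 0.76 over the 7 genes and 0.01 over all tested genes. The groups were separate, with the lowest Kir2.1-OE value above the highest control value, in 5 of the 7 genes and in 31.7% of all genes. The reverse held for none of the 7 and for 29.9% of all genes.

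Long transcripts were higher in the Kir2.1-OE libraries as a class. The median log2 fold change rose from -0.50 over the 656 genes whose longest transcript is under 1000 nt, through -0.30, -0.06 and 0.29, to 0.81 over the 884 genes of 8000 nt or more, and 63.9% of the latter were called higher. Over the 7 ribbon synapse genes Spearman's rho of log2 fold change with transcript length was 0.89, a description over genes of the same 6 libraries. The members were therefore also fitted with length and GC offsets, which subtract from each library its fitted trend with transcript length and GC content. The trend was not removed in full. Genes of 8000 nt or more, among them Bsn and Pclo, kept a median of 0.20, beside -0.09 to -0.02 in the other classes. With the offsets 3 of the 7 ribbon synapse genes were called higher, beside 6.46% of all genes, and none lower, beside 3.41%. What part of the trend with length comes from the libraries and what part from the cells was not tested.

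**Figure D1:**
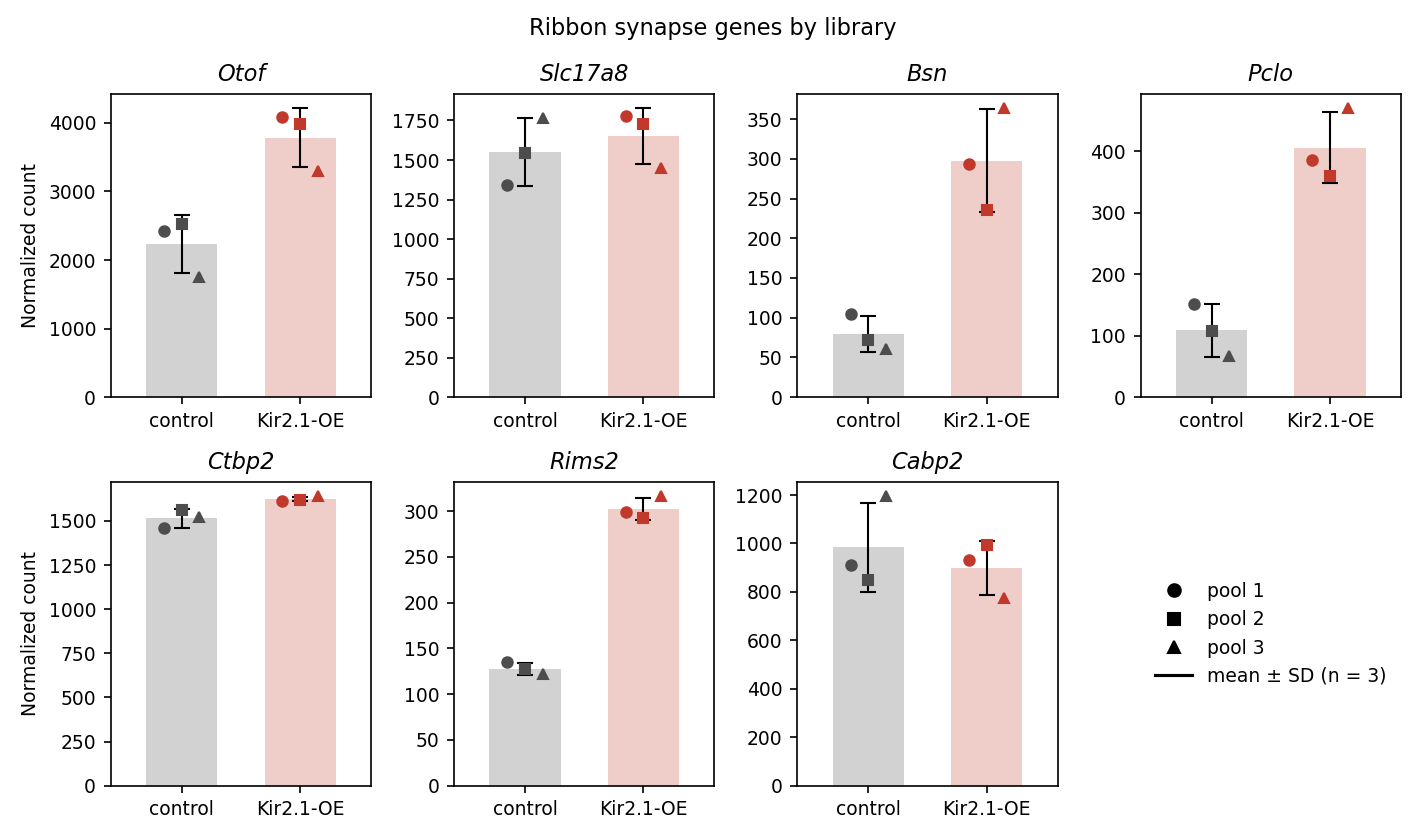
Normalized count of each ribbon synapse gene in the 6 libraries (points, shape by pool number), with the mean (bar) and SD of 3 pools per group; each panel has its own axis from 0. Kir2.1-OE and control pools are separate for Otof, Bsn, Pclo, Rims2 and, narrowly, Ctbp2, and overlap for Slc17a8 and Cabp2.

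Among the scaffold genes of the active zone, Bsn had normalized counts of 294, 235 and 364 in Kir2.1-OE pools 1 to 3 and of 105, 71.8 and 61.1 in control pools 1 to 3. Every Kir2.1-OE pool lay above every control pool, and the lowest Kir2.1-OE value, 235, stood clear of the highest control value, 105. The means were 297 ± 64.6 and 79.4 ± 23.1 (SD, n = 3 pools), a log2 fold change of 1.90 (SE 0.238, 95% interval 1.37 to 2.44, edgeR's adjusted p = 0.000309). With length and GC offsets the log2 fold change of Bsn was 0.75 (adjusted p = 0.0299). That call was lost with offsets from local lines in place of local parabolas (0.50, adjusted p = 0.124). The local lines were run first, and the parabolas were adopted after the values under local lines had been seen.

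Pclo, whose transcript is the longest of the 7, had normalized counts of 386, 360 and 470 in the Kir2.1-OE pools and of 151, 108 and 66.2 in the control pools. The groups did not overlap, and both ran in the same order of pools as Bsn, with pool 3 highest among the Kir2.1-OE libraries and lowest among the controls. The mean was 405 ± 57.4 against 109 ± 42.7 (SD, n = 3), a log2 fold change of 1.90 (SE 0.256, 95% interval 1.32 to 2.47, adjusted p = 0.000432). With the offsets Pclo stayed higher by 1.26 on the log2 scale (adjusted p = 0.00438). Over the 6 libraries the log2 levels of Bsn and Pclo had a Pearson r of 0.987, given as a description since both groups enter it.

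Rims2, the third scaffold gene, had the tightest replicates of the genes that rose. Its normalized counts were 299, 293 and 316 in the Kir2.1-OE pools and 135, 127 and 122 in the control pools. The groups were far apart relative to their spread, with means of 303 ± 12.2 and 128 ± 6.71 (SD, n = 3). The log2 fold change was 1.24 (SE 0.131, 95% interval 0.94 to 1.53, adjusted p = 0.000179), and it was 0.97 with the offsets (adjusted p = 0.00137). Against a null of a log2 fold change of 0.6 in place of 0 (edgeR's glmTreat), Bsn, Pclo and Rims2 had adjusted p-values of 0.00477, 0.00626 and 0.00508.

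Otof, the vesicle fusion gene whose promoter drives rtTA in both groups, had normalized counts of 4089, 3978 and 3293 in the Kir2.1-OE pools and of 2428, 2519 and 1749 in the control pools. Kir2.1-OE pools were higher throughout, and pool 3 was the lowest in each group. The mean was 3787 ± 431 against 2232 ± 421 (SD, n = 3), a log2 fold change of 0.76 (SE 0.138, 95% interval 0.45 to 1.07, adjusted p = 0.00174). With length and GC offsets no difference was called and the sign turned, to -0.10 (adjusted p = 0.498). The adjusted p of Otof against a log2 fold change of 0.6 was 0.355.

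Slc17a8, which encodes the glutamate transporter of IHC vesicles, had normalized counts of 1781, 1726 and 1452 in the Kir2.1-OE pools and of 1341, 1547 and 1768 in the control pools. The groups overlapped almost completely, with means of 1653 ± 176 and 1552 ± 213 (SD, n = 3). The log2 fold change was 0.09 (SE 0.114, adjusted p = 0.535) and its 95% interval, -0.17 to 0.35, leaves room for a change of modest size in either direction. With the offsets it was 0.03 (adjusted p = 0.845).

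Ctbp2, the gene of the ribbon protein RIBEYE, was the most even of the 7 between libraries. Its normalized counts were 1614, 1620 and 1639 in the Kir2.1-OE pools and 1459, 1563 and 1522 in the control pools. The Kir2.1-OE pools all lay just above the control pools, at 1624 ± 13.1 against 1514 ± 52.4 (SD, n = 3), but the log2 fold change of 0.10 did not pass the test (SE 0.0665, 95% interval -0.05 to 0.25, adjusted p = 0.232). With the offsets its sign turned, to -0.12 (adjusted p = 0.185).

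Cabp2, the shortest gene and the only one of the 7 with a lower mean in Kir2.1-OE, had normalized counts of 931, 992 and 776 in the Kir2.1-OE pools and of 910, 848 and 1194 in the control pools. The groups overlapped, and the highest value was that of control pool 3. The means were 900 ± 111 and 984 ± 185 (SD, n = 3), a log2 fold change of -0.13 (SE 0.140, 95% interval -0.44 to 0.19, adjusted p = 0.475). The sign turned with the offsets (0.19, adjusted p = 0.300) and without control pool 3 (0.03).

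A 2-sided exact permutation test of each gene alone gave p = 0.10 for the 5 genes whose groups did not overlap, the smallest that 3 pools against 3 allow, and p = 0.60 for Slc17a8 and Cabp2. Separate groups give this same p whatever the size of the difference, as for Bsn and Ctbp2. The units of this test and of edgeR's test were pools of mice.

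**Figure D2:**
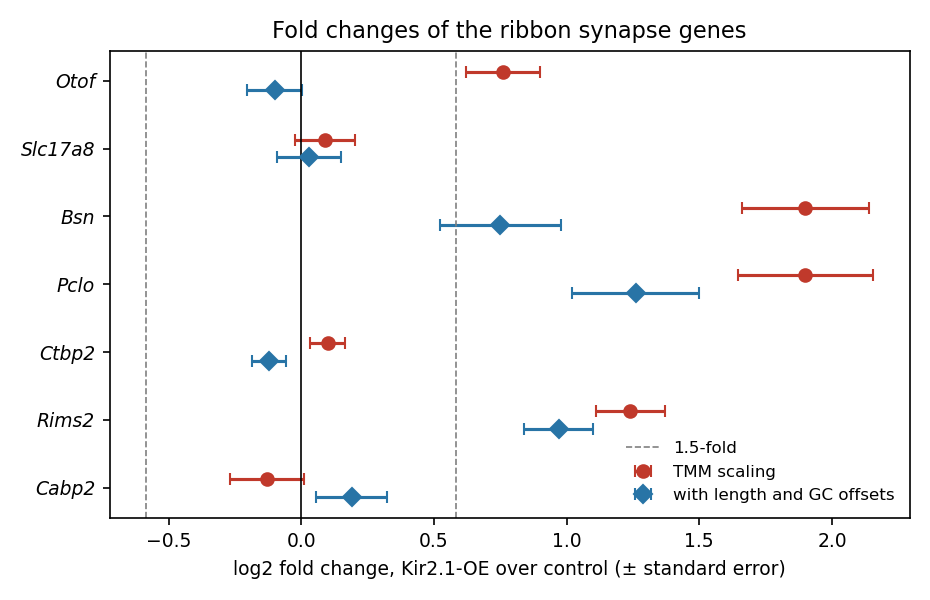
Log2 fold change (Kir2.1-OE over control) of the 7 ribbon synapse genes with its standard error, under TMM scaling (red circles) and with length and GC offsets (blue diamonds); dashed lines mark 1.5-fold. Pclo, Rims2 and Bsn lie beyond 1.5-fold in both fits, and Otof goes from 0.76 to -0.10.

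Set beside genes of like transcript length, Bsn and Pclo at 1.90 stood above the median of 0.81 and the upper quartile of 1.16 of genes of 8000 nt or more. Rims2 at 1.24 and Otof at 0.76 exceeded the upper quartile of 0.64 of genes between 4000 and 8000 nt, whereas Slc17a8 at 0.09 was below that class's median of 0.29. Ctbp2 at 0.10 lay between the median of -0.06 and the upper quartile of 0.23 of its class, 2000 to 4000 nt. Cabp2 at -0.13 lay between the median of -0.30 and the upper quartile of -0.06 of genes of 1000 to 2000 nt. Under TMM scaling all 7 genes but Slc17a8 were thus above the median of their own length class, a comparison that takes no account of GC content. With length and GC offsets Otof (-0.10) and Ctbp2 (-0.12) were below their class medians of -0.02 and -0.05. Slc17a8, at 0.03 with the offsets, was above its class median of -0.02.

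**Figure D3:**
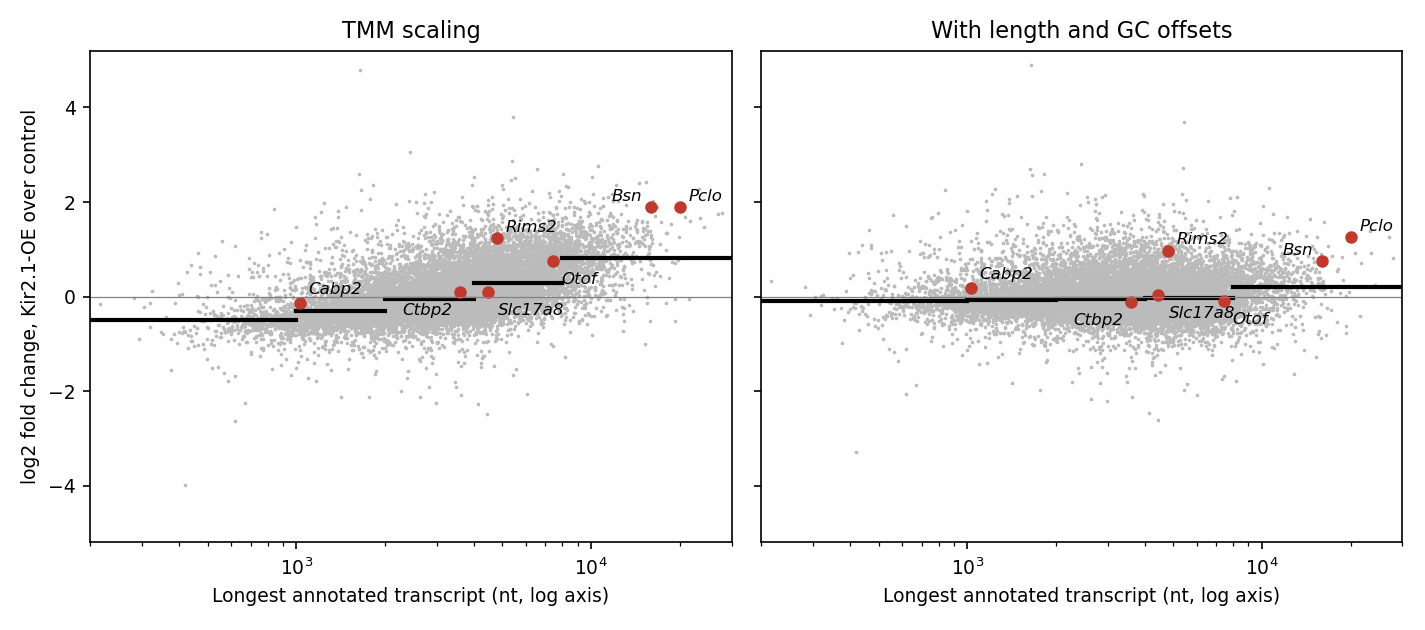
Log2 fold change of tested genes (grey) against the length of the longest annotated transcript (log axis), with the 7 ribbon synapse genes in red and the median of each length class as a black line, under TMM scaling (left) and with length and GC offsets (right); 5 of 15192 genes lie outside the axes. The class medians climb from -0.50 to 0.81 on the left, and with offsets they lie between -0.09 and 0.20.

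The order of the 7 genes in abundance was compared per length, as reads per kilobase of the longest transcript, scaled to the same library total. In the controls Cabp2 was highest at 60.6 ± 10.8 (SD, n = 3), followed by Ctbp2 at 26.7 ± 1.21, Slc17a8 at 22.1 ± 3.0 and Otof at 19.1 ± 3.77. Rims2 had a level of 1.70 ± 0.0903, and Pclo and Bsn were lowest at 0.344 ± 0.135 and 0.316 ± 0.0909. The pools of Slc17a8 and Otof overlapped in this order, as did those of Pclo and Bsn. The other neighbours were separate.

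In Kir2.1-OE, Cabp2 was again highest at 63.5 ± 8.17 (SD, n = 3) and Pclo and Bsn were lowest at 1.47 ± 0.204 and 1.36 ± 0.297. Otof, at 37.2 ± 4.90, stood second in this group and behind Slc17a8 in the controls, with Ctbp2 at 32.8 ± 0.909 next to it and overlapping it. Slc17a8 followed at 27.0 ± 3.38 and Rims2 at 4.58 ± 0.219. With the median length of each gene's transcripts in place of the longest, Ctbp2 was the highest of the 7 in both groups, at 53.4 in the controls and 60.7 in Kir2.1-OE.

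The genes were also set against Otof within each library, to see whether they moved by the same amount. Relative to Otof, Bsn was higher in Kir2.1-OE than in the controls by 1.12, Pclo by 1.17 and Rims2 by 0.45 on the log2 scale. The ratio to Otof of Slc17a8 fell by 0.68, that of Ctbp2 by 0.67 and that of Cabp2 by 0.89. All 6 ratios separated the groups, each with p = 0.10 in a 2-sided exact permutation test (0.10 after adjustment over the 6), which is again the smallest p possible. With length and GC offsets the differences of Bsn, Pclo and Rims2 were 0.80, 1.39 and 1.05, while those of Slc17a8, Ctbp2 and Cabp2 were 0.12, -0.03 and 0.28 and their groups overlapped.

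A second reference was the mean log2 level of 10 markers shared by inner and outer hair cells (Myo7a, Pou4f3, Gfi1, Lhfpl5, Tmc1, Cdh23, Espn, Loxhd1, Ptprq and Chrna9). Against it, Bsn was higher by 1.54, Pclo by 1.59, Rims2 by 0.87 and Otof by 0.42, whereas Cabp2 was lower by 0.48, and these 5 ratios separated the groups (exact permutation p = 0.10, 0.14 after adjustment over the 7). The ratio fell by 0.26 both for Slc17a8 (p = 0.30) and for Ctbp2 (p = 0.20) in the same exact permutation test, with overlapping groups. With the offsets Pclo (1.27) and Rims2 (0.94) still separated the groups, and Bsn (0.68), Otof (-0.12) and Cabp2 (0.16) did not.

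Markers of the other cell types were read in the same libraries. Of 10 spiral ganglion neuron markers, which include neurofilament genes and Slc17a7, 7 were called higher in Kir2.1-OE and none lower. Their median log2 fold change was 1.06, and 15.5% of all tested genes were called higher. With the offsets the list had 6 called higher, beside 6.46% of all genes, none lower and a median of 1.16. The summed level of the 10 markers was 572 to 1462 CPM (reads scaled to the same library total) in Kir2.1-OE and 268 to 446 in the controls. Their mean log2 level relative to the controls was 1.10, 0.44 and 1.81 in Kir2.1-OE pools 1 to 3, so that pool 3 was highest and pool 2 lowest, as for Bsn, Pclo and Rims2. Glia markers ran in that order too (0.56, 0.31 and 0.67), as did macrophage markers (0.18, 0.16 and 0.23). Shared hair cell markers (0.43, 0.51 and 0.13) and outer hair cell markers (0.19, 0.25 and 0.04) ran in the reverse order. In control pools 1 to 3 the neuronal markers stood at 0.09, 0.29 and -0.38. Control pool 3 was lowest both for these markers and for Bsn, Pclo and Rims2. The highest control pool was pool 2 for the markers and pool 1 for Bsn, Pclo and Rims2. Without Kir2.1-OE pool 3 the log2 fold changes were 1.72 for Bsn, 1.76 for Pclo and 1.19 for Rims2, and all were called. The part of neuronal RNA in the values of Bsn, Pclo and Rims2 was not tested.

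Hair cell markers had smaller medians. Their counts stand beside 15.5% of all tested genes called higher and 5.08% called lower, and with the offsets 6.46% and 3.41%. Of the shared hair cell markers 4 of 10 were called higher and none lower (median log2 fold change 0.21, summed level 268 to 346 CPM in Kir2.1-OE and 242 to 278 in the controls). Of 5 inner hair cell markers outside the 7 genes 1 was called higher (median 0.20, 331 to 379 against 279 to 325 CPM), and of 6 outer hair cell markers 2 (median 0.08, 888 to 1075 against 965 to 1173 CPM). Markers of both hair cell types were thus present in every library. Glia and fibrocyte markers, given next, had higher summed levels, and sums over different genes do not measure shares of cells. With the offsets 1 of the 10 shared hair cell markers was called higher and none lower, and their median was -0.06.

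The remaining lists held other cells of the dissected tissue, and their counts stand beside the same shares of all genes (15.5% higher and 5.08% lower, with the offsets 6.46% and 3.41%). Of 6 glia markers 2 were called higher (median 0.48, 9409 to 12376 CPM in Kir2.1-OE against 6852 to 8724 in the controls). With the offsets 3 glia markers were called higher (median 0.57). Supporting cell markers were nearly level, with 1 of 6 higher and a median of 0.06 (1747 to 1950 against 1680 to 1980 CPM). Of 4 fibrocyte markers 2 were higher (median 0.46, 6029 to 7945 against 4591 to 7946 CPM), and of 4 macrophage markers none was called (median 0.25, 142 to 149 against 121 to 130 CPM). Of 3 erythrocyte markers 2 were called lower (median -1.02, 191 to 234 against 293 to 827 CPM), none of them with the offsets, and their mean log2 level relative to the controls was 1.90 in control pool 1 against -1.04 and -0.86 in control pools 2 and 3. Of 3 melanocyte markers 2 were called lower, with and without the offsets (median -1.81, 9.65 to 12.3 against 22.8 to 28.1 CPM). The part of these cells in the values of the 7 genes was not tested.

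**Figure D4:**
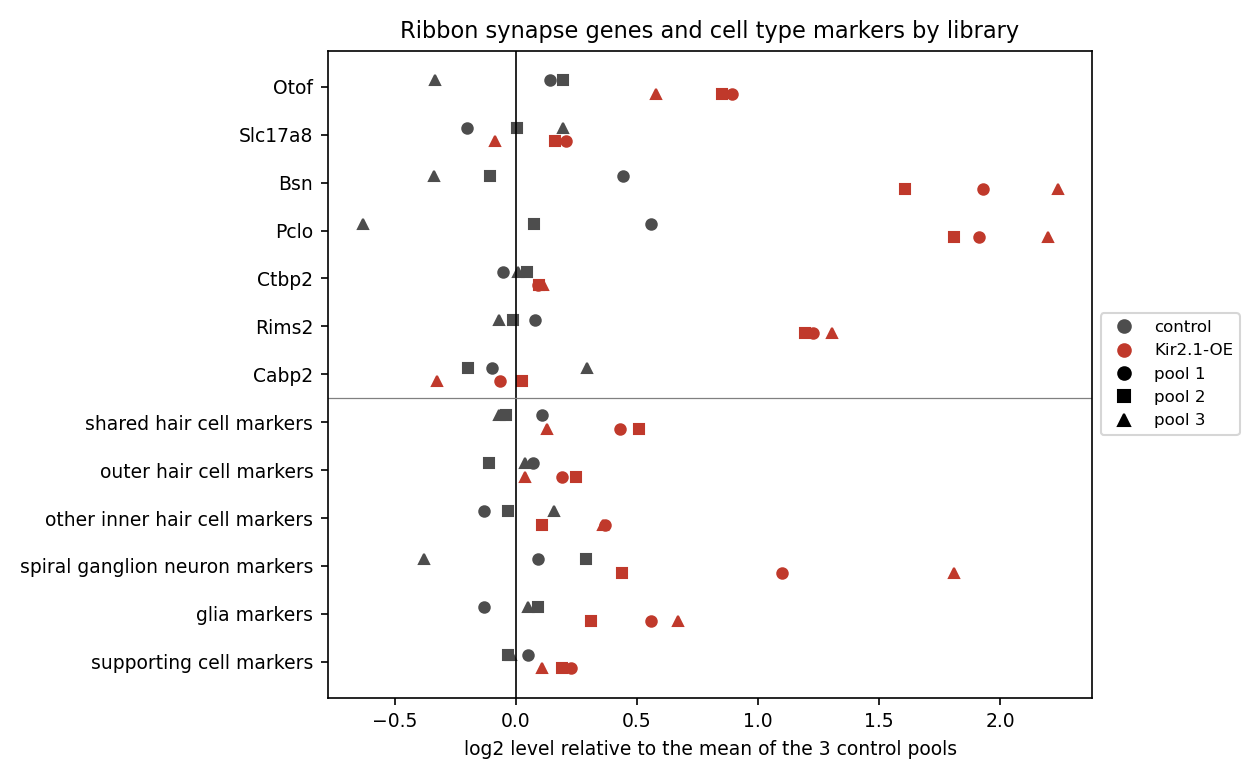
Log2 level of each ribbon synapse gene (above the line) and mean log2 level of 6 cell type marker lists (below it) in each library, relative to the mean of the 3 control pools; colour gives the group and shape the pool number. Bsn, Pclo and Rims2 are furthest to the right among the genes. Spiral ganglion neuron markers, spread from 0.44 to 1.81 in Kir2.1-OE, are furthest among the lists in Kir2.1-OE pools 1 and 3. In pool 2 shared hair cell markers lie further to the right (0.51 against 0.44).

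Other genes of the synapse were counted from 4 lists. Of all tested genes 15.5% were called higher and 5.08% lower, and with the offsets 6.46% and 3.41%. Of 14 further scaffold genes of the active zone and ribbon, 11 were called higher and none lower. Their median log2 fold change was 1.02, against 0.01 over all genes. Each of the 14 but Ctbp1 has a longest transcript above 4000 nt. Genes of 4000 to 8000 nt had a median of 0.29, with 26.4% called higher. Those of 8000 nt or more had a median of 0.81, with 63.9% called higher. Unc13a, a vesicle priming gene of neuronal synapses, had the highest value, 163 ± 45.6 against 43.0 ± 11.7 normalized counts (SD, n = 3) and a log2 fold change of 1.91 (SE 0.276, adjusted p = 0.000586). Its more abundant paralogue Unc13b, at 3574 ± 263 against 2386 ± 195, had a log2 fold change of 0.58 (adjusted p = 0.000607) and stayed just under 1.5-fold. Ctbp1, the paralogue of Ctbp2, was the most abundant of the list and differed by -0.07 (adjusted p = 0.398). With the offsets 5 of the 14 were called higher, with a median of 0.32. Unc13a stayed called at 1.01 (adjusted p = 0.0209), and Unc13b was at 0.01 (adjusted p = 0.938). Ctbp1 was at -0.32 (adjusted p = 0.00715), under 1.5-fold.

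Of 8 genes of the presynaptic calcium channel and of calcium-binding proteins, 4 were called higher and 1 lower (median 0.51; with the offsets 2 higher and 1 lower, median 0.27). Cabp1, a paralogue of Cabp2, had the highest log2 fold change, 1.30 (SE 0.228, adjusted p = 0.00148). The calcium buffer genes Calb1 and Calb2, the most abundant of the list, moved in opposite directions: Calb1 (calbindin) fell by 0.74 on the log2 scale (adjusted p = 0.00165) and Calb2 (calretinin) rose by 0.68 (adjusted p = 0.0151), and both were also called with the offsets. Cacna1d, which encodes the pore of the IHC channel CaV1.3 and was singled out after its values were seen, was higher by 0.94 (adjusted p = 0.000168). Its log2 fold change with the offsets was 0.23, under 1.5-fold.

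Of 15 tested genes of vesicle release and recycling, 6 were called higher and none lower (median 0.36), and 5 were called higher with the offsets (median 0.39). Syt2, a calcium sensor of neuronal synapses, was highest at 1.79 (SE 0.318, adjusted p = 0.00160). Wrb, the older symbol of Get1, which takes part in inserting otoferlin into membranes, was lowest at -0.47 (adjusted p = 0.00338), short of 1.5-fold. The most abundant genes of the list, the myosin gene Myo6 and the adaptor gene Ap2m1 (-0.08, adjusted p = 0.387), were not called. Myo6 was higher by 0.36 (adjusted p = 0.00411), short of 1.5-fold, and was at -0.10 with the offsets (adjusted p = 0.326). Camlg was not analysed here.

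Of 12 tested paralogues of the 7 genes, 8 were called higher and none lower (median 0.97), and 4 with the offsets (median 0.38). Rims1, a paralogue of Rims2 that neurons use, was highest, at 80.1 ± 17.8 against 21.3 ± 4.40 normalized counts and a log2 fold change of 1.90 (SE 0.284, adjusted p = 0.000691). Slc17a7, which encodes the transporter VGLUT1 that loads glutamate in neurons and is also in the neuronal marker list, rose by 1.01 (adjusted p = 0.0196), a call that the offsets ended (0.85, adjusted p = 0.0501). Cabp4 was lowest at -0.49 (adjusted p = 0.372), on 14.4 ± 2.88 against 20.2 ± 9.58 normalized counts. Cabp5 had 0 reads in all 6 libraries, which in the smallest allows a share of up to 8.47e-06% of reads, and Fer1l4 had 2 reads in all. The list shares Ctbp1, Rims1, Rims3 and Rims4 with the scaffold list and Cabp1 and Cabp4 with the calcium list.

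**Figure D5:**
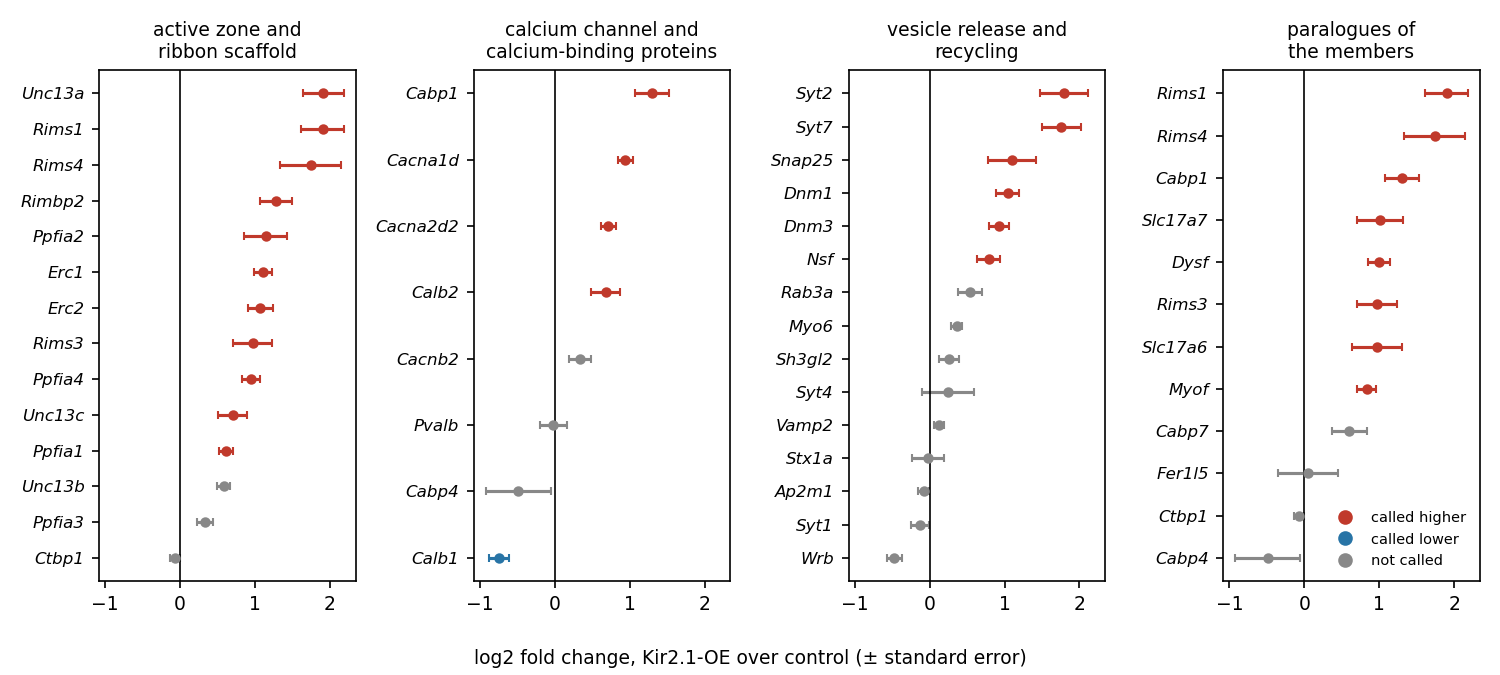
Log2 fold change (Kir2.1-OE over control) with its standard error for the tested genes of 4 lists of other synaptic genes; red genes were called higher, blue lower and grey were not called. The scaffold list has 11 of 14 genes in red, with Ctbp1 nearest to 0, and Calb1 is the only blue gene.

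For each of the 7 genes the 3 genes with the most similar log2 levels over the 6 libraries were listed from 13644 genes, as a description, since with 6 libraries in 2 groups many genes are alike by their group difference. Bsn was nearest to Abca8b, Pan2 and Cers1 (Pearson r of 0.996, 0.995 and 0.994), and Pclo to Itgb4, Plxnc1 and 1500004A13Rik (0.998, 0.998 and 0.996). Rims2 was nearest to Acly, Hspa4l and Akap11 (0.999, 0.999 and 0.998), and Otof to Zfp574, Ccdc142 and Adamts3 (0.997, 0.997 and 0.996). The genes nearest to the members that did not pass the test were Smap1, Man1c1 and Col5a2 for Ctbp2 (1.000, 0.997 and 0.996), Hps4, Zfp385c and Nfkbib for Slc17a8 (0.987, 0.980 and 0.980) and Retsat, Adipor2 and Mpzl2 for Cabp2 (0.993, 0.983 and 0.980). None of the 7 genes was among the 3 nearest of another.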

How the data were processed

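Poly(A) RNA of 3 Kir2.1-OE and 3 littermate control pools was sequenced as paired reads. The authors mapped the reads to mm10 with the nf-core RNA pipeline and deposited expected counts per gene symbol, estimated with Salmon and not divided by length or library size. Tool versions, annotation and strand setting are not given in the sources used here. Between 6.69% and 7.29% of values were not whole.

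Samples were grouped by the genotype in the labels. Expected counts were rounded and fitted over the whole table with edgeR 4.0.16 under R 4.3.3 (TMM factors 0.984 to 1.01; filterByExpr; quasi-likelihood test; Benjamini-Hochberg adjustment over 15303 genes), with no further term. DESeq2 1.42.0 and limma 3.58.1 served as alternatives. Transcript length and GC content came from the longest GENCODE vM21 transcript; 23376 symbols matched directly, 650 through an older symbol and 385 not. The offsets are loess trends (span 0.4) of the log2 ratio of a library to the mean of the libraries; local lines were run first, and local parabolas, R's default, were adopted with values under both seen. Start windows are from RefSeq.

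The members and lists were chosen with earlier results of these data known. The genes named were the 7 members, up to 4 genes of each list (highest and lowest log2 fold change and the 2 most abundant), Kcnj2, Cacna1d, which falls outside this rule and was added after its values were seen, and, for each member, the 3 genes most correlated in log2 CPM (prior count 2) among those averaging at least 50 normalized reads. Libraries of a group differed by more than sampling noise (chi-square per degree of freedom 15.7 to 31.1).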

Additional observations from a re-analysis of the deposited data

How the results depend on the processing

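All 4 calls among the 7 genes held under every scaling, filter, rounding and test tried without offsets and with each library left out; against a log2 fold change of 0.6, 3 of the 7 were called, without Otof. Leaving out a library gave log2 fold changes of 0.61 to 0.86 for Otof, 1.72 to 2.16 for Bsn, 1.64 to 2.21 for Pclo, 1.19 to 1.28 for Rims2, 0.07 to 0.12 for Ctbp2, 0.00 to 0.19 for Slc17a8 (lowest, and with a minus sign before rounding, without control pool 1) and -0.23 to 0.03 for Cabp2. With length and GC offsets the signs of Otof (-0.10), Ctbp2 (-0.12) and Cabp2 (0.19) turned. With offsets from local lines, which were run before the parabolas reported here and kept as an alternative once both had been seen, the values were -0.07 for Otof, -0.14 for Ctbp2, 0.18 for Cabp2 and 0.50 for Bsn, whose call was lost, and 2 of the 7 genes were called higher. The causes were not tested.

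Numbers did not pair the pools: deviations of same-numbered pools correlated at -0.20, -0.32 and -0.27. The numbers are those of the labels; the header inside the deposited counts of control pool 1 carries the number 4 instead, so this check and the block are uncertain for that pool. The replicate block without offsets left the 4 calls in place. The replicate block with offsets gave -0.09 for Otof, -0.12 for Ctbp2, 0.19 for Cabp2 and 0.73 for Bsn (edgeR's adjusted p = 0.0552), with 2 of the 7 called higher.

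Over all genes 2365 were called higher; this was 988 with offsets, 799 with offsets and the block, 904 with local lines, 832 against a log2 fold change of 0.6 and 4184 with no fold threshold. Of genes called lower there were 778, and 1378 with upper quartile scaling, which moved the median log2 fold change to -0.08, 444 with offsets and the block, 57 against 0.6 and 3590 with no fold threshold. Offsets, offsets with the block and local lines left 5, 2 and 4 scaffold genes, 2, 2 and 2 calcium genes and 4, 2 and 4 paralogues called higher.

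With median transcript lengths the levels in control and Kir2.1-OE were 8.94 and 16.1 for Otof, 13.9 and 15.7 for Slc17a8, 0.192 and 0.762 for Bsn, 0.181 and 0.716 for Pclo, 53.4 and 60.7 for Ctbp2, 2.63 and 6.57 for Rims2 and 35.6 and 34.5 for Cabp2. With offsets the ratio to Otof differed by 0.12 for Slc17a8, -0.03 for Ctbp2, 1.05 for Rims2 and 0.28 for Cabp2, and the ratio to shared hair cell markers by -0.12 for Otof, 0.01 for Slc17a8, 0.68 for Bsn and 0.16 for Cabp2.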
